A study of Mus musculus with 13 samples.

Results

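The genes described here are 10 Toll-like, scavenger and endocytic receptors, co-receptors and adaptors. They are Tlr2, Tlr3, Tlr4, Cd14, Ly96, Myd88, Msr1, Scarb1, Cd36 and Lrp1. Several can bind microbial or sulfated polysaccharides or modified lipoproteins, whereas Tlr3 responds to double-stranded RNA and Myd88 is an adaptor. The genes were listed by symbol, and all 10 were found through the GRCm39 annotation among the 57010 genes with an expected count in these libraries. A filter on low counts kept 15034 genes, among them 9 of the 10 members. Msr1 was too low to test, and Cd36 passed the filter but held only 0 to 35 counts per sample. The RNA-Seq covered wild-type (WT) mouse embryonic fibroblasts (MEFs), which are primary cells grown from minced embryos after the viscera, heart and lungs are taken out, in 4 groups of 3 mice. Control MEFs are labelled untreated, and the study describes them as given the vehicle of etoposide. Senescent MEFs (SnCs) were exposed to etoposide, a topoisomerase inhibitor that breaks DNA, at 2 μM for 24 h and cultured for 5 days. SnCs were left untreated or were given Fucoidan-FV, a sulfated polysaccharide from a brown alga (Fucus vesiculosus), for 12 h before RNA extraction, at a dose of 100 or of 300 μg/mL. Every group has samples labelled mouse 4, 5 and 6, and control mouse 5 has a pair of libraries, 5(1) and 5(2), whose counts were summed.

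Toll-like receptors are membrane proteins with a leucine-rich ectodomain that recognize conserved microbial structures. Tlr4, with its co-receptor Ly96 (MD-2) and the lipid carrier Cd14, responds to lipopolysaccharide, Tlr2 responds to lipoproteins, and Tlr3 responds to double-stranded RNA inside endosomes. Most of these receptors signal through the adaptor Myd88 to NF-κB, whereas Tlr3 uses another adaptor, Ticam1. Scavenger receptors such as Msr1, Cd36 and Scarb1 bind polyanions, fatty acids and lipoproteins, and Msr1 has long been studied with fucoidan as a competing ligand. Lrp1 is a large endocytic receptor of the lipoprotein receptor family that fibroblasts carry in quantity.

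Per length, on the TPM scale of RSEM, the 10 genes ranged over several orders of magnitude. Lrp1 was highest, with a median of 664 TPM over the 12 samples (359 to 930), followed by Scarb1 with 30.2 TPM (14.9 to 69.9) and Myd88 with 19.5 TPM (11.7 to 32.1). Ly96 had a median of 7.25 TPM, Tlr4 6.38 TPM and Tlr3 4.17 TPM, and these levels overlapped between neighbours in most groups. Cd14 (1.48 TPM), Tlr2 (0.31 TPM), Cd36 (0.185 TPM) and Msr1 (0.06 TPM) were close to or under 1 TPM. In control MEFs the order of the 4 highest genes was Lrp1, Scarb1, Myd88 and Ly96, and no neighbours among these 4 overlapped. In untreated SnCs the order of these genes was unchanged and again none overlapped, with Ly96 (12.4 ± 3.32 TPM, SD, n = 3) also above every sample of Tlr4. The order in TPM also rests on the length that RSEM assigned in each library. This length ran from 1223 to 3767 bases for Tlr4 and from 499 to 640 bases for Ly96. For Lrp1 it ran from 1698 to 4009 bases, although its exons cover 17735 bases. In SnCs with 100 μg/mL Fucoidan-FV, Scarb1 (20.8 ± 5.21 TPM) and Myd88 (25.7 ± 5.56 TPM) overlapped, as they did at 300 μg/mL (24.3 ± 4.45 and 22.3 ± 2.25 TPM).

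**Figure D1:**
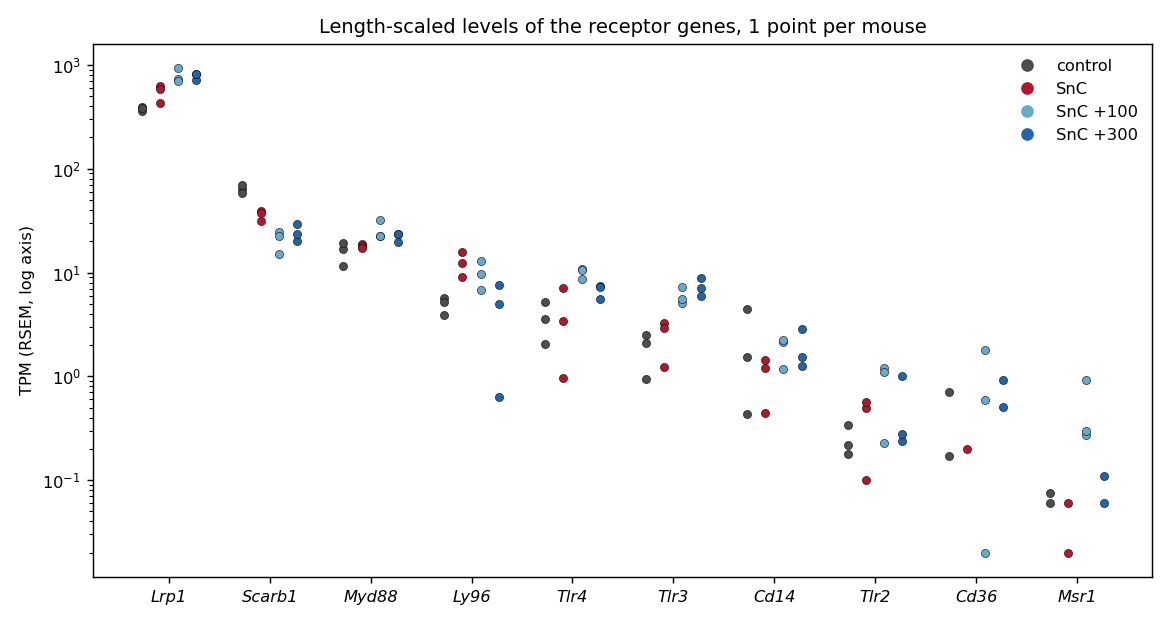
Level of each receptor gene in TPM (log axis) in each of the 12 samples, with 1 point per mouse and the groups side by side (control, SnC, SnC with 100 or 300 μg/mL Fucoidan-FV). Lrp1 lies highest in every sample, between 359 and 930 TPM, and samples at 0 (4 of Cd36 and 3 of Msr1) are not drawn.

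Libraries held 22782536 to 31278750 expected counts. Levels are given in CPM, counts scaled to a common library size by TMM factors. The 10 fibroblast markers examined were present in every group, and their summed level was 31850 to 53790 CPM. The 15 macrophage markers were low, with a summed 0.564 to 5.54 CPM in control MEFs, 3.39 to 19.0 in untreated SnCs, 7.11 to 17.0 at 100 μg/mL and 4.54 to 14.1 at 300 μg/mL. All 10 macrophage markers that could be tested were higher in SnCs than in control MEFs on average, and none passed the test. Libraries also differed in genes whose exons lie almost wholly in 1 annotated transcript, whose median deviation from the mean library ran from −1.21 in control mouse 6 to 1.03 on the log2 scale in 1 library at 100 μg/mL. The libraries 5(1) and 5(2) of control mouse 5 differed in this respect, with medians of −1.003 and 0.613. Between 100 μg/mL and untreated SnCs, the median log2 fold change was 0.405 over genes with over 95% of exonic bases in 1 transcript. It was −0.122 over genes with under 50%. Fold changes with an offset per gene and library for transcript share, length and GC content are given below for Scarb1, Tlr2, Tlr4, Ly96, Cd14 and Lrp1. Those of the pathway list and marker genes are given without this offset. RNA of whole cultures was measured, so fewer cells with a transcript and less of it per cell cannot be told apart.

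Differentially expressed genes (DEGs) had an adjusted p under 0.05 by edgeR's quasi-likelihood test and an absolute log2 fold change over 1. In SnCs against control MEFs, Scarb1 fell and was the 1 DEG among 9 members, where 8.42% of all tested genes were DEGs and 3.95% were DEGs that fell. The 3 values of each group did not overlap for Ly96, which was higher, and for Scarb1, against 27.1% of all genes. With 100 μg/mL Fucoidan-FV, Scarb1 fell again relative to untreated SnCs and was again the only DEG among the members, where 2.69% of all genes were DEGs and 1.6% were DEGs that fell. Groups did not overlap for 4 members, with Tlr3, Tlr4 and Lrp1 higher and Scarb1 lower, against 26.2% of all genes. At 300 μg/mL none of the 9 members was a DEG in edgeR, where 1.64% of all genes were DEGs. An unadjusted p under 0.05 was found for 3 of the 9 members, beside 2297 of the 15034 genes tested. DESeq2 called 1 member at this dose, Tlr3. Tlr3 (higher), Ly96 and Scarb1 (both lower) did not overlap between 300 μg/mL and untreated SnCs, against 19.6% of all genes.

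The median log2 fold change over the 9 tested members was 0.19 in SnCs against control MEFs, beside 0.07 over all tested genes. It was 0.55 at 100 μg/mL against untreated SnCs, beside −0.02 over all genes, and 0.41 at 300 μg/mL, beside 0.00. With 9 members, each median is the value of 1 gene. At 100 μg/mL this was Tlr2 (SE 0.869, adjusted p = 0.788), and at 300 μg/mL it was Cd14 (SE 0.788, adjusted p = 0.873). Neither gene passed the test, and with the offset the value of Tlr2 was −0.08. Between the doses, the median over the members was −0.31, beside 0.08 over all genes. No member was a DEG between 300 and 100 μg/mL, and DESeq2 called none, where 0.00665% of all genes were DEGs. None of the members had an unadjusted p under 0.05, beside 94 of the 15034 genes tested. Scarb1 (higher at 300 μg/mL), Tlr4 and Ly96 (lower) did not overlap between the doses, against 7.54% of all genes. Comparisons that share the untreated SnCs are not independent of each other, and the values are set side by side for that reason.

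**Figure D2:**
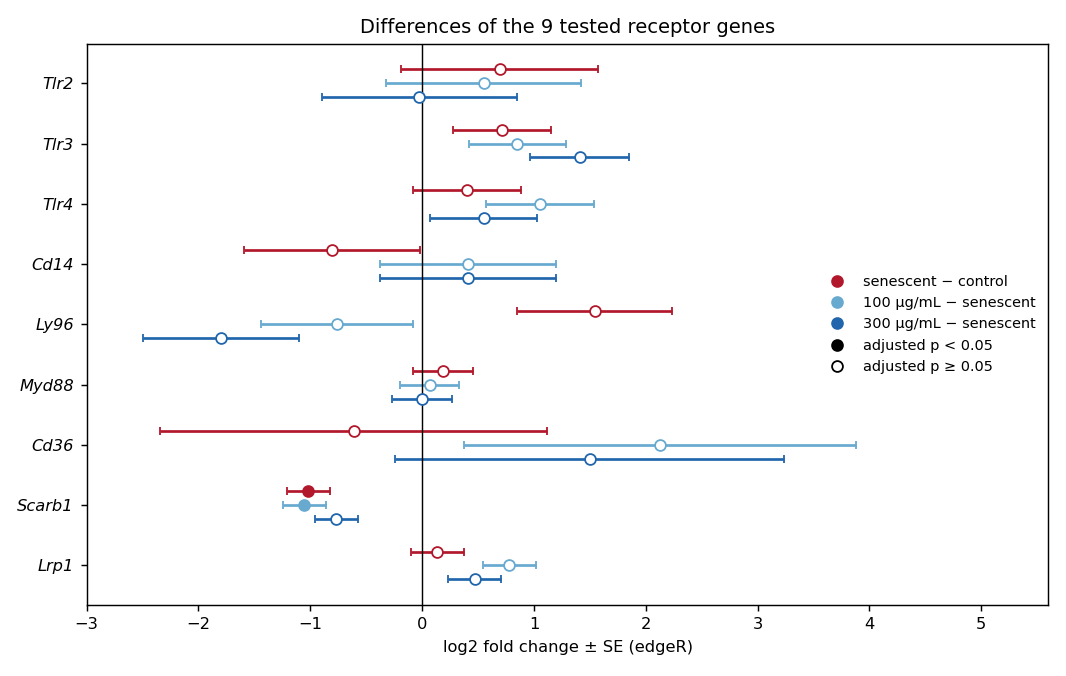
Log2 fold change with its SE (edgeR, 3 mice per group) of the 9 tested members in SnCs against control MEFs and in each dose of Fucoidan-FV against untreated SnCs, with filled points at an adjusted p under 0.05. Scarb1 alone has filled points, at −1.02 and −1.05, and the bars of Cd36 are the longest.

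Both treated groups were also set against control MEFs, a comparison added after the data were seen. With 100 μg/mL, 3 of 9 members were DEGs (Tlr3 and Tlr4 rose and Scarb1 fell), where 19.7% of all genes were DEGs. The higher dose gave 2 DEGs of 9 (Tlr3 rose and Scarb1 fell), where 18% of all genes were DEGs. The 10 tested macrophage markers were all higher than in control MEFs in these comparisons, and the medians of their log2 fold changes were 2.87 and 1.87 for the lower and the higher dose. Lyz2 (lysozyme) rose at both doses (adjusted p = 0.0158 and 0.0235) and Tyrobp, a signaling adaptor of myeloid cells, rose at 300 μg/mL (0.0486), with an adjusted p of up to 0.0579, 0.0829 and 0.132 over the alternatives. Their part in the values of the receptors was not tested. Groups did not overlap for 5 of 9 members at 100 μg/mL, against 48.3% of all genes, and for 4 of 9 at 300 μg/mL, against 43.3%. The effects of etoposide and of Fucoidan-FV cannot be told apart in these comparisons.

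**Figure D3:**
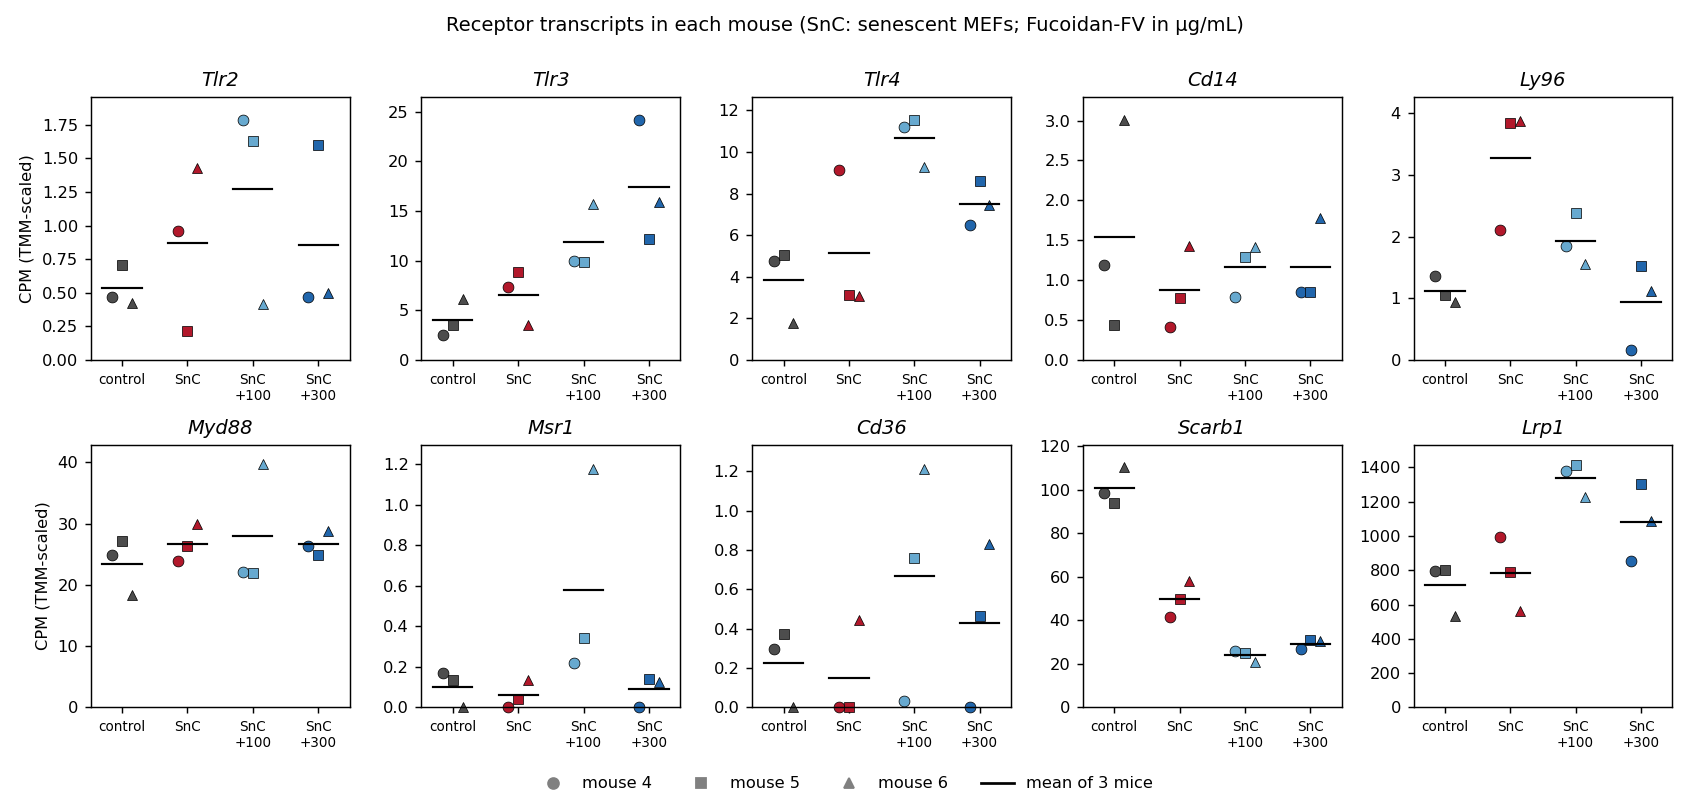
CPM of each member in each mouse (circle mouse 4, square mouse 5, triangle mouse 6), by group, with the mean of 3 mice as a line and each vertical axis starting at 0. Scarb1 steps down from 93.9 to 111 CPM in control MEFs to 21.0 to 25.9 CPM at 100 μg/mL, and Tlr3 lies highest at 300 μg/mL.

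Scarb1 (chr5:125353547-125418176, minus strand, GRCm39) encodes the scavenger receptor that takes up cholesterol esters from HDL, and it gave the clearest differences of the 10 genes. Its level was 98.5, 93.9 and 111 CPM in control mice 4, 5 and 6, and 41.4, 49.9 and 58.3 CPM in the untreated SnCs of the same mice. With Fucoidan-FV it was 25.9, 25.1 and 21.0 CPM at 100 μg/mL and 26.7, 31.0 and 30.4 CPM at 300 μg/mL. Every control value lay above every senescent value, and every untreated senescent value lay above every value of the treated SnCs. Counts of 608 to 4781 per sample stand behind these levels.

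In SnCs, Scarb1 fell by 1.02 on the log2 scale relative to control MEFs (SE 0.189, adjusted p = 0.00369, lower in 3 of 3 mice). The adjusted p was under 0.05 in all 17 alternatives of this comparison (5.55e-06 to 0.0295), while the fold change stood near the limit of a DEG and passed it in 12 of them. Without control mouse 6 it was −0.94, without senescent mouse 4 it was −0.92, with libraries 5(1) and 5(2) as separate samples it was −0.98, and with the offset it was −0.91 (−0.92 with the mouse as a block). At 100 μg/mL, Scarb1 fell by a further 1.05 relative to untreated SnCs (SE 0.190, adjusted p = 0.00956, lower in 3 of 3 mice). This call was lost in 9 of 17 alternatives. The adjusted p was over 0.05 without senescent mouse 5 (−0.89, adjusted p = 0.0687), without senescent mouse 6 (−0.76, adjusted p = 0.0722) and in a fit of these groups alone (−0.95, adjusted p = 0.115). In the other 6 the adjusted p stayed under 0.05 and the log2 fold change was −0.98 to −0.96, namely with RLE factors, in DESeq2, without the filter, with a minimum count of 30, without senescent mouse 4 and without mouse 6 of the treated group. At 300 μg/mL the log2 fold change was −0.77 (SE 0.189, adjusted p = 0.0591, lower in 3 of 3 mice), with an adjusted p of 0.00683 in DESeq2 and 0.0176 with the offset (0.0177 with the mouse as a block) and over 0.05 in the other 14 alternatives.

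The doses differed by 0.29 in Scarb1 (SE 0.189, adjusted p = 0.970), with the higher value at 300 μg/mL in 3 of 3 mice. Relative to control MEFs, Scarb1 fell by 2.07 at 100 μg/mL (SE 0.195, adjusted p = 1.47e-05), a 4.20-fold difference, and by 1.78 at 300 μg/mL (SE 0.193, adjusted p = 4.13e-05), a 3.44-fold difference. Both of these comparisons gave a DEG in all 17 alternatives.

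The genes whose pattern over the 12 samples was most like that of Scarb1, by Pearson's r of log2 CPM over all tested genes, were Ifrd2 (r = 0.986), Nop56 (r = 0.985) and Ddx39a (r = 0.982). Ifrd2 averaged 42.4 CPM in control MEFs, 15.2 in untreated SnCs, 8.02 at 100 μg/mL and 9.62 at 300 μg/mL. Nop56, a small nucleolar ribonucleoprotein component, averaged 258, 112, 50.9 and 62.0 CPM in the same order. Ddx39a, an RNA helicase, averaged 262, 120, 52.2 and 65.4 CPM. These correlations are a description, since the 12 samples share libraries and groups.

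Tlr3 (chr8:45848702-45864117, minus strand) had the highest CPM of the 3 Toll-like receptors among the members at 300 μg/mL Fucoidan-FV, while at 100 μg/mL Tlr4 lay above it in mice 4 and 5. It had 2.46, 3.47 and 6.11 CPM in control mice 4, 5 and 6 and 7.35, 8.84 and 3.50 CPM in untreated SnCs, so these groups overlapped. Treated SnCs had 9.95, 9.84 and 15.7 CPM at 100 μg/mL and 24.1, 12.2 and 15.9 CPM at 300 μg/mL. All 6 treated values lay above all values of the untreated SnCs and of the control MEFs.

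Relative to untreated SnCs, the log2 fold change of Tlr3 was 0.85 at 100 μg/mL (SE 0.435, adjusted p = 0.304) and 1.41 at 300 μg/mL (SE 0.440, adjusted p = 0.127), with higher values in 3 of 3 mice at each dose. The adjusted p at 300 μg/mL was 0.0286 in DESeq2 and 0.0404 without the filter on low counts, and it ranged from 0.0286 to 0.334 over the alternatives. Relative to control MEFs, Tlr3 rose by 1.56 at 100 μg/mL (SE 0.444, adjusted p = 0.0194) and by 2.12 at 300 μg/mL (SE 0.451, adjusted p = 0.00408). The first of these calls was lost without mouse 6 of the 100 μg/mL group (adjusted p = 0.0723). In SnCs against control MEFs the log2 fold change was 0.71 (SE 0.439, adjusted p = 0.350). Of the exonic bases of Tlr3, 7.31% are shared with Gm45542 on the opposite strand.

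Promoters from 250 bases before to 50 bases after the start of the gene were taken from the RefSeq promoter set (GRCm38.p6) for 5 members, Tlr2, Tlr3, Myd88, Cd36 and Lrp1, and those of Scarb1, Tlr4, Ly96 and Msr1 were not used here. The 5 promoters were searched on both strands for an NF-κB motif (GGGNNNTTCC), an interferon-stimulated response element (GAAANNGAAA), a GC box (GGGCGG) and an AP-1 motif (TGANTCA). None of these matches overlapped each other in the promoters printed. The 3 promoters that held an NF-κB or interferon motif are shown because these are the elements through which Toll-like receptor signals reach genes, and capitals mark the match.
Tlr2: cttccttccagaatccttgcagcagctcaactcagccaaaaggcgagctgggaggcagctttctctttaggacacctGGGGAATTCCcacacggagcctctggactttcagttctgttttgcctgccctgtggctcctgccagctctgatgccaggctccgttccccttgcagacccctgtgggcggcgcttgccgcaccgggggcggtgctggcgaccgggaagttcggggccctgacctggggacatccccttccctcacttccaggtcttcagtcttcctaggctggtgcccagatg
Tlr3: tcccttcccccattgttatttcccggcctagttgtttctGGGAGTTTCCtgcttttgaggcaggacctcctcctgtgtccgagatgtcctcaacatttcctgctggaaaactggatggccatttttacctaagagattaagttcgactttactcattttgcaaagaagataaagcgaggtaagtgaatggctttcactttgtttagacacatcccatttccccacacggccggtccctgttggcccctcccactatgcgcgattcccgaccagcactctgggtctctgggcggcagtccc
Myd88: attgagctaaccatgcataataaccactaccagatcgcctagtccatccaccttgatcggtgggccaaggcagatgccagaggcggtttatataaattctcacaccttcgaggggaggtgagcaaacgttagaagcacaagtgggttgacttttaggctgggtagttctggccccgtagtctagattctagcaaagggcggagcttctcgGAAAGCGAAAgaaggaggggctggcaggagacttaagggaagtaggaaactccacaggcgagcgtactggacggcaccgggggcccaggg
The Tlr2 promoter (chr3:83841559-83841858, minus strand) held the NF-κB letters at −173 from the start, and the Tlr3 promoter (chr8:45410331-45410630, minus strand) held them at −211. These letters occur in 5.56% of the 32851 mouse promoters of this length. The Myd88 promoter (chr9:119339969-119340268, minus strand) held the interferon letters at −40, which occur in 3.44% of promoters. All 5 promoters held a GC box, which 35.7% of promoters hold, and none held the AP-1 letters, which 7.81% hold. A match is a description of the letters and not of binding.

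Tlr4 (chr4:66745783-66849936, plus strand), the lipopolysaccharide receptor, had 4.76, 5.05 and 1.79 CPM in control mice 4, 5 and 6 and 9.14, 3.15 and 3.09 CPM in untreated SnCs. At 100 μg/mL it had 11.2, 11.5 and 9.27 CPM, and at 300 μg/mL it had 6.48, 8.61 and 7.47 CPM. The 100 μg/mL group lay above the untreated SnCs by a narrow gap, since senescent mouse 4 reached 9.14 CPM, and all treated values lay above all control values. Against untreated SnCs the log2 fold change was 1.06 at 100 μg/mL (SE 0.483, adjusted p = 0.245) and 0.55 at 300 μg/mL (SE 0.480, adjusted p = 0.666). Without senescent mouse 4 these were 1.96 (adjusted p = 0.0526) and 1.35 (0.162). Of the exonic bases of Tlr4, 86.7% lie in 1 transcript, and with the offset the log2 fold change at 100 μg/mL was 0.60 in place of 1.06 (adjusted p = 0.348).

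Relative to control MEFs, Tlr4 rose by 1.46 at 100 μg/mL (SE 0.488, adjusted p = 0.0408, higher in 3 of 3 mice). This call was lost when either control mouse 4 (adjusted p = 0.0553) or control mouse 6 (0.0804) was left out, and when mouse 4 (0.103), 5 (0.107) or 6 (0.0615) of the treated group was left out. It was also lost with library 5(2) alone for control mouse 5 (adjusted p = 0.0944). Relative to control MEFs the log2 fold change of Tlr4 at 300 μg/mL was 0.95 (SE 0.484, adjusted p = 0.175).

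Ly96 (chr1:16758275-16779961, plus strand), the co-receptor that holds lipopolysaccharide on Tlr4, had 1.36, 1.06 and 0.940 CPM in control mice 4, 5 and 6. In untreated SnCs it had 2.11, 3.84 and 3.87 CPM, all above the control values. It had 1.85, 2.39 and 1.56 CPM at 100 μg/mL and 0.155, 1.53 and 1.12 CPM at 300 μg/mL. The 300 μg/mL values all lay below those of the untreated SnCs, and the lowest, mouse 4, rests on 4 counts.

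In SnCs against control MEFs the log2 fold change of Ly96 was 1.54 (SE 0.692, unadjusted p = 0.0434, adjusted p = 0.181). Against untreated SnCs it was −0.76 at 100 μg/mL (SE 0.677, adjusted p = 0.588) and −1.80 at 300 μg/mL (SE 0.699, unadjusted p = 0.0226, adjusted p = 0.225). The direction was the same in 3 of 3 mice in each of these comparisons, and none passed the test. With the offset the value at 100 μg/mL was −0.24 and that at 300 μg/mL was −1.29. The summed macrophage markers were also higher in untreated SnCs of mice 5 and 6 (19.0 and 15.4 CPM) than in any control sample, and they stayed at 14.1 and 13.3 CPM in these mice at 300 μg/mL, where Ly96 was lower. In mouse 4 these markers were 3.39 CPM in untreated SnCs and 4.54 CPM at 300 μg/mL, both within the range of the control samples. Their part in the values of Ly96 was not tested.

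Cd14 (chr18:36858120-36859851, minus strand), which passes lipopolysaccharide to Tlr4 and Ly96 and is abundant on monocytes, stayed between 0.415 and 3.01 CPM. It had 1.19, 0.432 and 3.01 CPM in control mice 4, 5 and 6 and 0.415, 0.776 and 1.43 CPM in untreated SnCs. Treated SnCs had 0.783 to 1.42 CPM at 100 μg/mL and 0.853 to 1.78 CPM at 300 μg/mL, and all 4 groups overlapped. Its log2 fold change was −0.81 in SnCs against control MEFs (SE 0.789, adjusted p = 0.593) and 0.41 at each dose against untreated SnCs (adjusted p = 0.829 and 0.873). The direction in SnCs rested on control mouse 6, without which the log2 fold change was 0.13 (adjusted p = 0.946). With the offset, the values at 100 and 300 μg/mL were 0.91 and 0.87 (adjusted p = 0.501 and 0.581). With 13 to 64 counts per sample and this spread between mice, smaller differences were not detectable here.

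Tlr2 (chr3:83743576-83749074, minus strand) was the lowest of the 3 Toll-like receptors among the members, with 5 to 57 counts per sample. It had 0.467, 0.707 and 0.423 CPM in control mice 4, 5 and 6, 0.959, 0.216 and 1.43 CPM in untreated SnCs, 1.78, 1.63 and 0.415 CPM at 100 μg/mL and 0.465, 1.60 and 0.498 CPM at 300 μg/mL. Within each of the senescent groups the highest mouse was more than 3 times the lowest, and all groups overlapped. The log2 fold change was 0.69 in SnCs against control MEFs (SE 0.879, adjusted p = 0.699), 0.55 at 100 μg/mL against untreated SnCs (SE 0.869, adjusted p = 0.788) and −0.02 at 300 μg/mL (SE 0.871, adjusted p = 0.996).

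All exonic bases of Tlr2 lie in its 1 annotated transcript, and in most libraries its deviation from the mean had the same sign as the median deviation of the 1-transcript genes. The libraries with the highest median deviation of these genes, 1.03 and 0.93 (mice 5 and 4 at 100 μg/mL), had a log2 deviation of Tlr2 of 0.90 and 1.00. Control mouse 6, with −1.21, had −0.54, and senescent mouse 5, with −0.80, had −0.88. The signs were opposite in control mouse 4 (0.38, with −0.42 for Tlr2) and in mouse 6 at 300 μg/mL (0.14, with −0.33 for Tlr2). The pair of libraries of control mouse 5 held 8 and 28 counts of Tlr2. With the offset, the log2 fold change of Tlr2 at 100 μg/mL against untreated SnCs was −0.08 in place of 0.55.

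**Figure D4:**
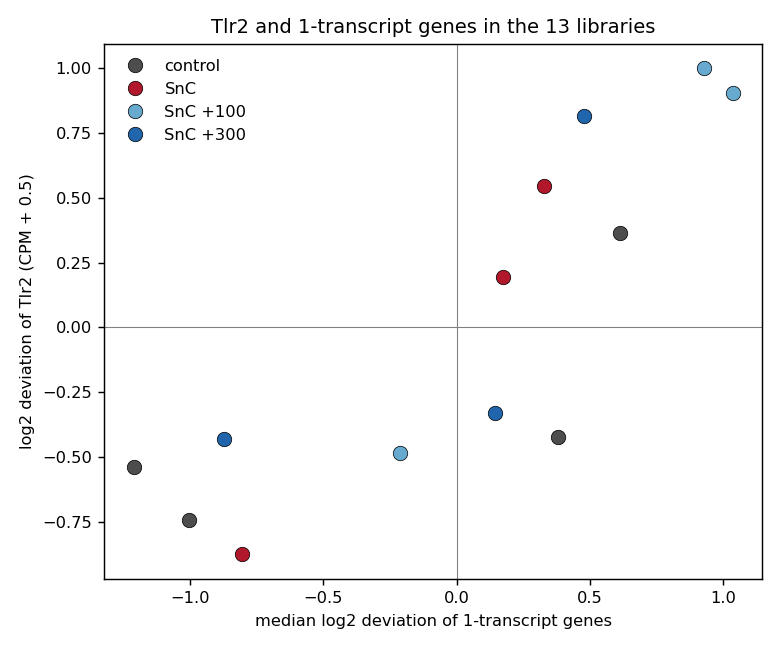
Log2 deviation of Tlr2 from its mean over the 13 libraries (vertical axis) against the median log2 deviation of 1401 genes with over 95% of exonic bases in 1 transcript (horizontal axis), with 1 point per library coloured by group. The libraries at 1.03 and 0.93 on the horizontal axis have 0.90 and 1.00 on the vertical axis, and those at −1.21 and −1.003 have −0.54 and −0.74, while those at 0.38 and 0.14 have −0.42 and −0.33.

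Myd88 (chr9:119165000-119170486, minus strand), the shared adaptor, had the smallest differences of the 9 tested members at each dose against untreated SnCs. It had 24.9, 27.1 and 18.3 CPM in control mice 4, 5 and 6, 23.9, 26.3 and 29.9 CPM in untreated SnCs, 22.1, 22.0 and 39.8 CPM at 100 μg/mL and 26.3, 24.9 and 28.9 CPM at 300 μg/mL. All groups overlapped, and mouse 6 at 100 μg/mL was the highest sample. The log2 fold change was 0.19 in SnCs against control MEFs (SE 0.267, adjusted p = 0.736), 0.07 at 100 μg/mL (SE 0.267, adjusted p = 0.924) and 0.00 at 300 μg/mL against untreated SnCs (SE 0.267, adjusted p = 1). Of the exonic bases of Myd88, 13.1% are shared with Acaa1a on the opposite strand.

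Lrp1 (chr10:127374012-127457017, minus strand), the endocytic receptor, had 11391 to 44125 counts per sample. Its level was 796, 803 and 535 CPM in control mice 4, 5 and 6 and 995, 788 and 561 CPM in untreated SnCs. At 100 μg/mL it was 1381, 1415 and 1224 CPM, above every untreated sample, and at 300 μg/mL it was 855, 1303 and 1086 CPM. The log2 fold change against untreated SnCs was 0.78 at 100 μg/mL (SE 0.238, unadjusted p = 0.00597, adjusted p = 0.0839, higher in 3 of 3 mice) and 0.47 at 300 μg/mL (SE 0.237, adjusted p = 0.377). The adjusted p at 100 μg/mL was 0.0190 in DESeq2, 0.00515 without the filter on low counts and 0.0440 without senescent mouse 4, and over 0.05 in the other 14 of 17 alternatives, up to 0.247 without mouse 5 of the treated group. With the offset the log2 fold changes for the lower and the higher dose were 0.42 and 0.18 (adjusted p = 0.0936 and 0.571).

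Against control MEFs, Lrp1 was higher by 0.91 at 100 μg/mL (SE 0.239, adjusted p = 0.0127), which is under the fold change of a DEG, and by 0.60 at 300 μg/mL (SE 0.238, adjusted p = 0.0826). With library 5(2) alone for control mouse 5, the first of these was 0.69 (adjusted p = 0.0960), and with the offset for transcript share, length and GC content it was 0.49 (adjusted p = 0.0195). RSEM assigned Lrp1 a mean transcript length of 1698 to 4009 bases, although its exons cover 17735 bases, so its TPM level rests on shorter annotated transcripts.

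Cd36 (chr5:17986432-18094067, minus strand), a receptor for long-chain fatty acids and oxidized LDL, was close to the limit of detection. It had 7, 19 and 0 counts in control mice 4, 5 and 6, 0, 0 and 13 in untreated SnCs, 1, 20 and 35 at 100 μg/mL and 0, 13 and 20 at 300 μg/mL. A count of 0 allows up to 0.0959 to 0.141 CPM in the 4 samples concerned, by a limit of 3 counts that covers counting error only. The SE of its log2 fold changes was 1.66 to 1.75, so no difference could be read from these samples. The adjusted p was 0.883, 0.552 and 0.763 in SnCs against control MEFs and at 100 and 300 μg/mL against untreated SnCs.

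Msr1 (chr8:40034726-40095714, minus strand), the macrophage scavenger receptor, was the member below the filter. It had 4, 7 and 0 counts in control mice 4, 5 and 6, 0, 1 and 4 in untreated SnCs, 7, 9 and 34 at 100 μg/mL and 0, 4 and 3 at 300 μg/mL. The counts at 100 μg/mL summed to 50 against 5 in the untreated SnCs, and 34 of the 50 came from mouse 6. The summed macrophage markers of that sample were the highest of the treated groups, at 17.0 CPM. In untreated SnCs of mice 4, 5 and 6 these markers were 3.39, 19.0 and 15.4 CPM, where Msr1 had 0, 1 and 4 counts. The part of these markers in the counts of Msr1 was not tested. No fold change was tested for Msr1.

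The other genes of these pathways were taken from 5 lists with 95 genes in all. Of 15 other Toll-like receptors and cofactors, 7 could be tested, and Tlr1, Tlr8, Tlr9, Tlr11, Tlr12, Tlr13, Cd180 and Ly86 were too low, with at most 18 counts in a sample. In SnCs against control MEFs, 2 of these 7 rose and none fell, where 8.42% of all genes were DEGs. No gene of this list was a DEG at 100 or 300 μg/mL against untreated SnCs, beside 2.69% and 1.64% of all genes. Lbp, the plasma protein that carries lipopolysaccharide, had 3 counts over the control samples and 71 over the untreated SnCs, a 27.0-fold ratio with a 95% counting interval of 8.87 to 134 (adjusted p = 0.00825). Unc93b1, which escorts nucleic-acid-sensing Toll-like receptors such as Tlr3 to endosomes, averaged 10.1 ± 1.76 CPM (SD, n = 3) in control MEFs and 23.96 ± 3.78 CPM in untreated SnCs, and it rose by 1.24 on the log2 scale (SE 0.268, adjusted p = 0.00884). Tlr5, the flagellin receptor, averaged 2.85 ± 0.938 CPM in untreated SnCs and 7.15 ± 1.11 CPM at 300 μg/mL, a log2 fold change of 1.33 that did not pass the test.

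Among 24 adaptors and kinases of these receptors, 23 could be tested. Of these, 1 rose and 1 fell in SnCs against control MEFs, where 8.42% of all genes were DEGs. No DEG was found at 100 or 300 μg/mL against untreated SnCs, beside 2.69% and 1.64% of all genes. Irf7, a transcription factor of the type I interferon response, averaged 1.03 ± 0.162 CPM in control MEFs and 4.72 ± 1.21 CPM in untreated SnCs, a log2 difference of 2.19 (SE 0.558, adjusted p = 0.0220). Irf5, another interferon regulatory factor, fell from 23.7 ± 1.85 to 7.48 ± 3.26 CPM (−1.66, SE 0.423, adjusted p = 0.0217). The call of Irf7 was lost without control mouse 4, 5 or 6 or senescent mouse 4 (adjusted p = 0.0520 to 0.0688), and that of Irf5 without control mouse 4 or 5 or senescent mouse 4 or 5 (0.0673 to 0.0736). The median log2 fold change of this list was 0.03 at 100 μg/mL and 0.06 at 300 μg/mL against untreated SnCs, beside −0.02 and 0.00 over all genes.

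Of 20 response genes downstream of these receptors, 11 could be tested. Tnf, Il1b, Ifnb1, Cxcl2, Cxcl10, Ccl5, Acod1, Nos2 and Lcn2 were too low, with at most 20 counts in a sample and 0 in all samples for Ifnb1. Icam1, a leukocyte adhesion molecule, rose in SnCs from 0.107 ± 0.147 to 7.90 ± 1.97 CPM, a log2 difference of 5.82 (SE 0.696, adjusted p = 0.000204). This size rests on 15 counts over the control samples against 679 over the untreated SnCs, a 51.65-fold ratio with a 95% counting interval of 31.1 to 92.8, and the log2 difference was 8.18 without control mouse 5. Vcam1, another adhesion molecule, rose at 100 μg/mL from 32.6 ± 7.68 to 66.8 ± 16.3 CPM (1.04, SE 0.263, adjusted p = 0.0463), with an adjusted p of 0.0561 when the mouse was a block. The call of Vcam1 was lost without any mouse of the treated group and without senescent mouse 5 or 6 (adjusted p = 0.0617 to 0.153). Il6 averaged 3.38 ± 2.12 CPM in untreated SnCs, 2.56 ± 1.26 at 100 μg/mL and 3.28 ± 1.495 at 300 μg/mL, which overlapped. Nfkbia, the NF-κB inhibitor that NF-κB itself induces, averaged 12.8 ± 1.54, 9.55 ± 1.28 and 10.03 ± 3.46 CPM in the same order.

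Of 19 other scavenger and pattern receptors, 13 could be tested. In SnCs against control MEFs, 1 of the 13 rose, where 8.42% of all genes were DEGs. None was a DEG at 100 or 300 μg/mL against untreated SnCs, beside 2.69% and 1.64% of all genes. Olr1, a receptor for oxidized LDL, rose in SnCs from 0.304 ± 0.183 to 1.83 ± 0.411 CPM (2.56, SE 0.758, adjusted p = 0.0438), with an adjusted p of 0.0622 when the mouse was a block, and the call was lost without any of the 6 samples (0.0552 to 0.0871). Against control MEFs, 5 of the 13 rose at 100 μg/mL and 7 rose at 300 μg/mL, and none fell, where 19.7% and 18% of all genes were DEGs. Scara5, a ferritin scavenger receptor, had 0 counts in all control samples and 189 at 100 μg/mL, at least 69.1-fold higher by a limit of 3 counts over the group, and 155 counts at 300 μg/mL, at least 63.4-fold higher. The mice within each treated group differed in Scara5 (2.17 ± 2.02 and 2.06 ± 1.57 CPM).

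The list of relatives and partners of Lrp1 in the lipoprotein receptor family held 17 genes, all of which could be tested. In SnCs against control MEFs, Lrp11 rose from 25.8 ± 3.60 to 63.5 ± 17.0 CPM (adjusted p = 0.00217). Lrp8, an ApoE receptor, fell from 33.5 ± 1.04 to 7.51 ± 3.50 CPM (−2.16, SE 0.439, adjusted p = 0.00617). Lrp4 was the 1 DEG among these 17 genes at 100 μg/mL against untreated SnCs, where 2.69% of all genes were DEGs. It rose from 2.43 ± 1.06 to 10.3 ± 2.31 CPM (2.07, SE 0.467, adjusted p = 0.0289), a call lost without any of the 6 samples other than senescent mouse 4 (0.0684 to 0.0871). Without the offset, the median log2 fold change over the 17 genes was 0.35 at 100 μg/mL and 0.44 at 300 μg/mL against untreated SnCs. Over all genes it was −0.02 and 0.00.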

How the data were processed

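RNA-Seq libraries of MEFs were made with a stranded total RNA kit, and 13 libraries from 4 groups of 3 mice were used. Per the methods and the submitters' processing notes, the authors checked reads with FastQC 0.12.1, aligned them to GRCm39 with STAR 2.7.11b and estimated counts with RSEM 1.3.1. The authors deposited expected counts per gene, not normalized, and TPM values normalized by RSEM for length and depth, which were used for levels only. A further deposited table of the whole series was not used here, and the strand setting is not given in the sources used here.

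Expected counts were rounded, and libraries 5(1) and 5(2) were summed. Of 57010 genes, 56310 matched the annotation by gene ID, and 15034 passed filterByExpr (minimum count 10, minimum total count 15). The test was the quasi-likelihood test of edgeR 4.0.16 in R 4.3.3 (TMM factors, 1 fit over 4 groups, adjusted by the Benjamini-Hochberg method over the genes tested in each comparison), and it was tested on simulated counts. CPM were scaled by TMM. Library totals were 22782536 to 31278750 counts. The SEs and p-values rest on the spread between samples, while the counting intervals and limits cover counting error only.

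Samples with the same mouse number were taken as paired on the labels. The main test held the groups only, with no term for the mouse. The pairing entered the counts of mice that changed in 1 direction and the alternatives with a block. The deviations of same-mouse samples correlated with a median of −0.00627 over 18 pairs (−0.204 to 0.425), and 8 pairs were over 0.1. P-values measure the spread between the samples of these 3 mice. Beside the members, the text names the DEG with the largest increase and the one with the largest decrease of each pathway list in SnCs and at each dose, and the 3 genes most like Scarb1. Unc93b1, Tlr5, Il6, Nfkbia, Lrp8, Scara5, Lyz2, Tyrobp and the marker genes of the closing section were named after their values were seen. Some genes of the lipoprotein receptor list are not reported here. The members and lists were chosen with earlier results of these data known. Alternatives covered RLE factors, DESeq2 1.42.0, dropping the filter, a minimum count of 30, the groups compared alone, the libraries of control mouse 5 alone or separate, each mouse left out in turn, a block for the mouse, the adjusted p alone, and an offset for transcript share, length and GC content. The comparisons of treated SnCs with control MEFs, and the offset together with the block, were added after the data were seen.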

Additional observations from a re-analysis of the deposited data

How the results depend on the processing

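The count of receptor DEGs was 1 in SnCs against control MEFs, and 0 with libraries 5(1) and 5(2) as separate samples, with the offset for transcript share, length and GC content, and with this offset and the mouse as a block. Leaving out 1 mouse at a time gave 0 to 1. At 100 μg/mL against untreated SnCs it was 1, and 0 with RLE factors, DESeq2, no filter, a minimum count of 30 and the groups compared alone (0 to 1 with a mouse left out). At 300 μg/mL against untreated SnCs it was 0, and 1 in DESeq2 and without the filter (0 to 0 with a mouse left out), and between the doses it was 0 throughout. Against control MEFs it was 3 at 100 μg/mL (1 to 4 with a mouse left out) and 2 at 300 μg/mL (2 to 2). With the replicate block, which pairs samples by mouse, the counts for the receptors were 1, 1, 0 and 0 in the first 4 comparisons, and no call of a member changed. Over the 119 alternatives of the 7 DEG calls of members, 98 kept the call, 21 lost it and none reversed. Over the 790 alternatives of the 47 uncalled comparisons of members, 9 gave a DEG and 47 turned the direction. By the adjusted p alone, 11 lost the threshold and 10 passed it. Of 540 counts over the pathway lists under an alternative, 86 moved by more than 1.5 times. The cause of these moves was not tested. Counts were low for Msr1, Cd36, Tlr2 and Cd14, with at most 64 in a sample.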

Other observations

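The fibroblast markers, which were examined to check the cultures, held DEGs of the extracellular matrix at 100 μg/mL Fucoidan-FV against untreated SnCs, with 3 of 10 higher and none lower, where 2.69% of all genes were DEGs. Col3a1, a fibrillar collagen, averaged 873 ± 41.9 CPM (SD, n = 3) in untreated SnCs and 2271 ± 440 CPM at 100 μg/mL (log2 fold change 1.38, SE 0.278, adjusted p = 0.0164), a call lost without mouse 6 of the treated group (adjusted p = 0.0612). Lum, a proteoglycan that binds collagen, averaged 0.666 ± 0.248 and 6.60 ± 2.22 CPM (3.29, SE 0.798, adjusted p = 0.0399, 0.0585 with the mouse as a block). Dcn, a related proteoglycan, averaged 16.3 ± 5.79 and 81.7 ± 74.96 CPM (2.33, SE 0.599, adjusted p = 0.0477, 0.0869 with the mouse as a block). The calls of Lum and Dcn were lost without any of the 6 samples (adjusted p = 0.0680 to 0.122 and 0.0537 to 0.171), and the log2 fold change of Dcn was 1.24 without mouse 6 of the treated group. Lum and Dcn were also DEGs that rose in SnCs against control MEFs. The study names Dcn among the central genes of its network of genes downregulated with Fucoidan-FV, the opposite of the direction found here. Its network took DEGs of DESeq2 and kept those that changed relative to senescent MEFs and not to control cells. The call of Dcn here is that of edgeR, without this restriction.

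Of the 6 endothelial markers, 4 could be tested, and Tek, the angiopoietin receptor, was higher at 100 μg/mL (5.87 ± 1.81 CPM) than in untreated SnCs (0.481 ± 0.351 CPM), by 3.58 on the log2 scale (SE 0.901, adjusted p = 0.0446, 0.0525 with the mouse as a block). This call was also lost without any of the 6 samples (adjusted p = 0.0553 to 0.138). The summed endothelial markers were 5.23 to 11.7 CPM in the 6 treated samples, 1.47 to 3.30 CPM in untreated SnCs and 1.32 to 2.21 CPM in control MEFs, and Tek, with up to 7.96 CPM, was the highest of them. Emcn reached 2.08 CPM and Kdr 1.12 CPM, and Pecam1, Cdh5 and Tie1 stayed at or under 1.03 CPM in every sample. Of the 8 adipocyte markers, 3 could be tested and none was a DEG against untreated SnCs, and Adipoq, Plin1, Cidec, Cfd and Lep were at or under 0.114 CPM.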
